A study of Caenorhabditis elegans with 2 samples.

Results

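The genes described here are the 60 protein-coding genes of Caenorhabditis elegans whose symbol starts with ceh-, apart from ceh-13, ceh-20 and ceh-40, out of 19973 protein-coding genes on the nuclear chromosomes in the Ensembl annotation of WBcel235. ChIP-seq, in which DNA bound by a protein is precipitated with an antibody and sequenced, had been done for tagged PAT-9 in whole late embryos of strain RW12085, in 1 group of 2 biological replicates, with an age label of 3 hours and both sexes pooled. By its genotype the strain carries mNG and 3xFlag inserted at the pat-9 locus with CRISPR. Other labels name an eGFP fusion, a C-terminal GFP-FLAG tag and precipitation with an antibody to GFP, and which tag was present could not be settled. There was no second condition, so the question was where the members lie in the ranking of enriched regions and whether the replicates place them alike.

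Homeobox genes code for transcription factors that bind DNA through a homeodomain. In C. elegans they are known above all for setting the identity of neuron classes, and some act in epidermis, pharynx, mesoderm or gonad. PAT-9 is a zinc finger transcription factor needed for body wall muscle. RefSeq product names give a homeobox or homeodomain for 58 of the 60 members, and for ceh-48 and ceh-49 a One cut domain, the name of a family of homeodomain proteins. By the symbol rule the set includes ceh-60, a TALE gene related to ceh-20.

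The authors deposited 30000 regions for each replicate and 30000 for the pooled reads, before reproducibility filtering, and 735 optimal peaks that passed a reproducibility filter (IDR). The long lists hold background as well as peaks, per their deposited names. Each region carries the authors' own signal value, which ranks regions within a list and is not compared across lists. The 735 optimal peaks were the 735 strongest pooled regions, with signals from 101.3 to 990.6, while the median pooled region had a signal of 34.1. Read depth is unknown from these lists. In chromatin of whole embryos, binding in few cells and weak binding in many cells cannot be told apart.

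Among the strongest 3000 pooled regions, 4 of 60 members (6.67%) had one in the promoter (defined below), against 8.62% of all genes. Elsewhere in the gene it was 4 of 60 (6.67%), against 3.48%. Sequences of these regions are shown first because the results turn on them. Each covers the summit and 50 bp on either side in build ce11, from the RefSeq assembly, 5′ to 3′ on the strand of the gene. They are 5 of the 8 member regions among the strongest 3000 of the pooled list; those of ceh-2, ceh-8 and ceh-14 are described without sequence. Capitals mark the summit base and, in ceh-21, copies of GCCTAA.
ceh-21 intron, chrX:1850697-1850797, minus strand: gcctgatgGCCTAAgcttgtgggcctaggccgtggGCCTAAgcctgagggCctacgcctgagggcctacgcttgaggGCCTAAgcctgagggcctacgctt
ceh-53 promoter, chrIV:3497730-3497830, plus strand: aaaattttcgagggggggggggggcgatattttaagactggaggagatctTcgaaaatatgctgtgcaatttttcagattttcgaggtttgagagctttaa
ceh-92 promoter, chrIII:11581430-11581530, plus strand: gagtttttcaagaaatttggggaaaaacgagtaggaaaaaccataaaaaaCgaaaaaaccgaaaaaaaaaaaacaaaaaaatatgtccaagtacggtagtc
ceh-39 promoter, chrX:1856287-1856387, minus strand: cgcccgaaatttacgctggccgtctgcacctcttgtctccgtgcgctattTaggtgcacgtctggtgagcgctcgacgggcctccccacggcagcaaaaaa
ceh-82 coding exon, chrII:1733084-1733184, plus strand: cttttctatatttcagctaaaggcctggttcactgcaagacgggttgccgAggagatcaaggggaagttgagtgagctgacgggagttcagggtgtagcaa

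These windows have little in common. GC content was 65.3% at ceh-21, 60.4% at ceh-39, 50.5% at ceh-82, 41.6% at ceh-53 and 29.7% at ceh-92. The ceh-53 window holds a run of 13 G and the ceh-92 window a run of 12 A. The ceh-21 window holds 3 copies of GCCTAA, which on the other strand reads TTAGGC, the repeat unit of C. elegans telomeres. This word was looked for after the sequence had been seen. Of all 30000 pooled summit windows 292 (0.973%) hold 3 or more copies of it on either strand, and of the 735 optimal peaks 0 do. No 30-base stretch of any of these 5 windows occurs a second time on the 6 chromosomes.

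No member had an optimal peak in its promoter. A region counted as promoter when its summit fell in the 1000 bp before or the 500 bp after a transcript start of the gene. The count was 0 of 60 members, against 513 of 19973 protein-coding genes (2.57%). Among genes with any pooled region in that window it was 0 of 33 members and 5.91% of all such genes. At these background rates few members would carry a peak in any case, and no test was made. The members were not short of weak regions: 33 of 60 (55%) had a pooled region in the window, against 43.4% of all genes.

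**Figure D1:**
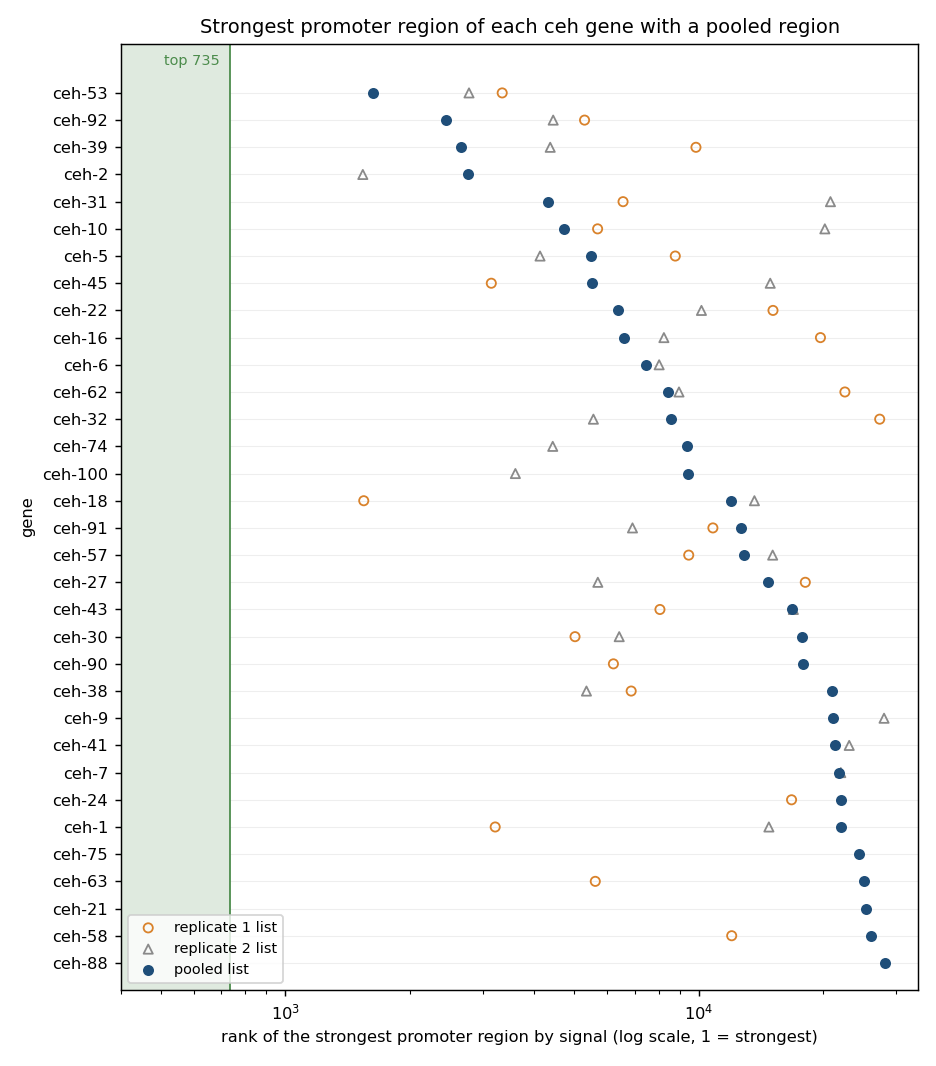
Rank of the strongest promoter region by signal on a log scale (x axis) for the 33 ceh genes with a pooled promoter region (y axis), in the pooled list (filled circles), replicate 1 (open circles) and replicate 2 (triangles). The shaded band marks the top 735 ranks, and no symbol lies in it; the nearest pooled value is ceh-53 at rank 1627.

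The strongest promoter region of any member lay at ceh-53, a paired-like homeobox gene. It covered positions 3497565 to 3497994 of chromosome IV, in intergenic sequence, and its summit was 429 bp upstream of the gene. It had a signal of 73.1 and rank 1627 in the pooled list. The best region of the window had a signal of 29.3 and rank 3347 in replicate 1, and a signal of 40.2 and rank 2782 in replicate 2. Its summit in each replicate lay within 1 bp of the pooled one. So ceh-53 was placed alike in both replicates, it was not in the optimal list, and no other gene had the site in its promoter window.

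Next came ceh-92, whose product RefSeq calls a homeobox-cysteine loop-homeobox protein, at pooled rank 2446 with a signal of 63.4. The region covered positions 11581265 to 11581694 of chromosome III, and its summit lay 120 bp upstream of ceh-92 and 78 bp upstream of the gene Y66D12A.6. The signal cannot be given to either gene alone. The best region ranked 5295 in replicate 1 and 4446 in replicate 2.

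On X, ceh-39, a One cut gene whose dose helps count X chromosomes in sex determination, reached pooled rank 2660 with a signal of 61.8. The region, from 1856122 to 1856551 on chromosome X, had its summit 165 bp upstream of the start, within 200 bp of the noncoding RNA gene T26C11.10. Its rank was 9847 in replicate 1 and 4373 in replicate 2. The replicates therefore placed it further apart than ceh-53 and ceh-92. An optimal peak with a signal of 189.7 lay 2633 bp upstream of ceh-39, outside the window, at a tRNA gene.

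The fourth member with a promoter region among the strongest 3000 was ceh-2, an Emx-type gene, at pooled rank 2768 with a signal of 61.1. Its summit, 831 bp upstream of the start on chromosome I, lay within 200 bp of a tRNA gene. In replicate 2 the best region of the window had a signal of 49.03 and rank 1540, and in replicate 1 the window held no region. This call rests on replicate 2. Among genes with any pooled promoter region, 4 of 33 members (12.1%) had one in the top 3000, against 19.8% of all such genes. Counted at this rank, 4 of 60 members (6.67%) had a strong promoter region, against 8.62% of all genes, and without regions near small RNA genes it was 3 members (5%) against 8.02%.

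Counted by promoter regions only, the replicates' own top 3000 held in part other members than the pooled list. In replicate 1 there was 1 member (1.67%, against 7.87% of all genes), the POU gene ceh-18, which is needed in the sheath cells of the gonad. In replicate 2 there were 3 (5%, against 8.59%), which were ceh-2, ceh-53 and ceh-93. No member had a promoter region in the top 3000 of both replicates, against 4.4% of all genes. With ranks up to 5000 this count was 1 member and 6.19% of all genes.

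**Figure D2:**
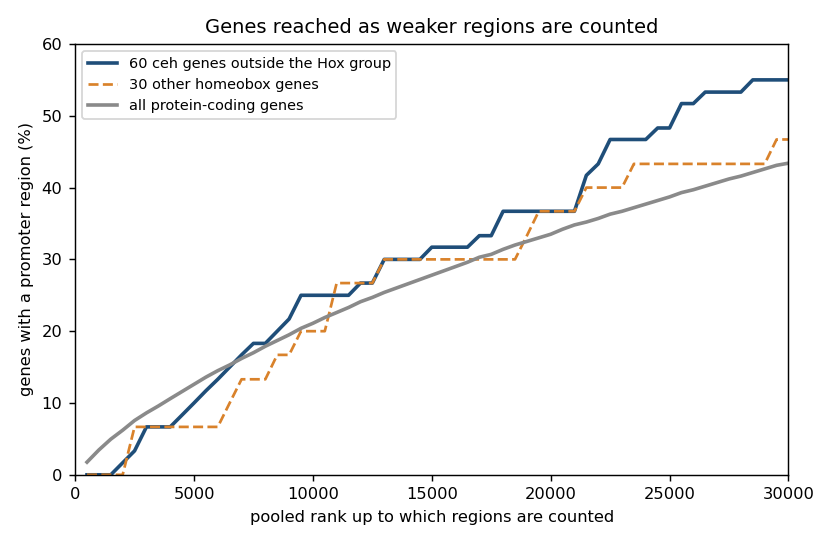
Share of genes with a promoter region (y axis, %) as regions are counted down to a given pooled rank (x axis), for the 60 ceh genes (dark line), 30 other homeobox genes (dashed line) and all protein-coding genes (grey line). The dark line lies at 0% up to rank 1500, at 6.67% at rank 3000 where the grey line is at 8.62%, and ends at 55% against 43.4%.

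Down to pooled rank 1500 no member had a promoter region, against 4.96% of all genes. Counted down to rank 7000, the members' share was 16.7% against 16.2% of all genes, and it was above theirs at each further step of 500 ranks. The median pooled rank of the best promoter region was 12675 over 33 members (range 1627 to 28182), against 10406.5 over 8678 genes. This order did not hold in the replicates. There the medians were 9652.5 over 28 members against 11347 over 8761 genes in replicate 1, and 9556 over 32 members against 10865 over 8826 genes in replicate 2.

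The ranks of the members' promoters in one replicate did not track those in the other. Over the 21 members with a promoter region in both replicate lists Spearman's rho between the ranks was -0.074, against 0.461 over 5852 protein-coding genes. It was 0.275 over 13 other homeobox genes and 0.5 over 8 Hox and TALE genes. The 5852 genes include 879 in the top 3000 of both replicates and the members none, so the ranges of rank differ. The points share libraries, and rho is given as a description. For 12 of the 21 (57.1%) the best regions of the replicates overlapped by at least 1 bp, against 68.7% of all such genes. Of the 33 best pooled regions of the members, 18 were overlapped by a region in both replicate lists, 5 in replicate 1 only, 7 in replicate 2 only and 3 in neither. That count was not made over all genes, so it does not show whether the members differ from them.

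As a ratio of ranks, the widest gaps between replicates were at ceh-93 and ceh-18. At ceh-93 the window held a region with a signal of 52.8 and rank 1259 in replicate 2, 249 bp upstream of the start. Replicate 1 had rank 17817 there with a signal of 17.3, and no pooled region overlapped either of them. At ceh-18 the region 960 bp upstream of a start had a signal of 35.7 and rank 1548 in replicate 1. The pooled region at that place had rank 4823, and its summit, 1037 bp upstream, fell just outside the window. The best region in replicate 2 lay elsewhere, at rank 13637. Neither site was among the strong pooled regions of the window.

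**Figure D3:**
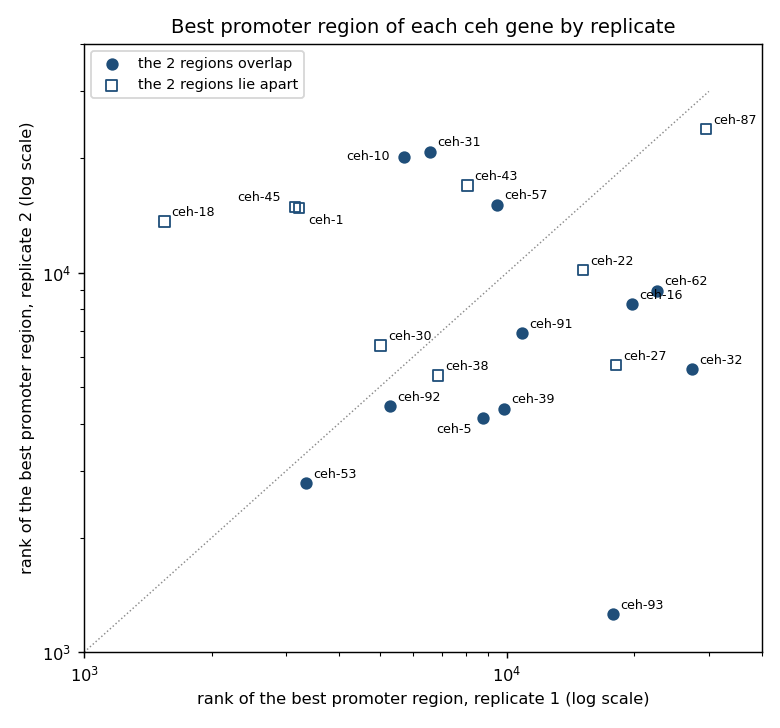
Rank of the best promoter region in replicate 1 (x axis) and replicate 2 (y axis), both on log scales, for the 21 ceh genes with a region in both lists; filled circles mark genes whose 2 regions overlap, open squares those whose regions lie apart, and the dotted line equal ranks. The gene ceh-53 lies nearest the strong corner (3347 and 2782), and ceh-93 and ceh-18 lie far from the line.

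By homeodomain class, the paired-like genes, many of which specify sensory neurons and interneurons, held the strongest promoter region. A pooled region was present at 3 of 8 (against 43.4% of all genes), namely ceh-53, the Vsx-type gene ceh-10 (rank 4723, inside polq-1 and 139 bp downstream of its own start) and the goosecoid-type gene ceh-45 (rank 5505). At ceh-10 this region had rank 5694 in replicate 1 and 20186 in replicate 2, and at ceh-45 rank 3150 and 16285. Both thus ranked higher in replicate 1. The Otx-type genes ceh-36 and ceh-37, the Phox2-type gene ceh-17, the Rax-type gene ceh-8 and ceh-54 had no pooled region in the window.

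The NK and BarH-like genes include the members best known from muscle and mesoderm. Of these 9 genes 7 had a pooled region, against 43.4% of all genes. Their median rank was 17750, against 10406.5 over all genes with one. The strongest was at ceh-31, a BarH-type gene, with a signal of 52.7 and rank 4311, but rank 6561 in replicate 1 and 20827 in replicate 2. The gene ceh-22, an Nkx2-type activator of pharyngeal muscle genes, had its region 28 bp downstream of a start, in a coding exon, at rank 6362, and there the rank was 19030 in replicate 1 and 10153 in replicate 2. Further down were ceh-27 (14726), ceh-30, which protects male sensory neurons from cell death (17750), ceh-9 (21165), ceh-24 (22053) and ceh-1 (22148). Of ceh-51, which acts early in the mesodermal MS lineage, the window held only a replicate 2 region at rank 27931. The M4 neuron gene ceh-28 had none in any list. Within the windows of ceh-30 the replicates ranked higher, at 5021 in replicate 1 and 6422 in replicate 2, with best regions that lay apart. At ceh-1 the best rank was 3219 in replicate 1 and 14781 in replicate 2, and at ceh-27 it was 18105 and 5701. Their best regions also lay apart. None of these genes was in the top 3000 of either replicate.

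Among the other Antennapedia-class genes 7 of 10 had a pooled region (against 43.4% of all genes), with a median rank of 8415 (against 10406.5). After ceh-2 these were led by ceh-5 (rank 5485, inside ocrl-1), the engrailed-type gene ceh-16 of the seam epidermis (6611) and ceh-62 (8415). At ceh-5 the ranks were 8776 in replicate 1 and 4132 in replicate 2, and at ceh-16 they were 19699 and 8237. The Distal-less-type gene ceh-43 had rank 16837 in the window, within 200 bp of a tRNA gene, but 3 weak regions in its introns, the best at rank 9586. The motor neuron gene ceh-12 of the HB9 type, ceh-19 and ceh-23 had no region in the window in any list.

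The remaining classes are small, and their counts stand beside a share of 43.4% of all genes with a pooled promoter region. Both POU genes had a region, ceh-6 of the excretory cell at rank 7441 and ceh-18 at 11937. Of the 3 SINE genes ceh-32, of the Six3 type, had rank 8567, ceh-33 only a replicate 1 region at rank 22769, and ceh-34, which specifies pharyngeal neurons, none. At ceh-32 the best rank was 27399 in replicate 1 and 5562 in replicate 2. Of 6 CUT genes 4 had one, with ceh-39 far ahead of ceh-38 (21032), ceh-41 (21417) and ceh-21 (25390) in the pooled list. The replicates did not keep ceh-39 far ahead of ceh-38. In replicate 1 ceh-38 had rank 6865 and ceh-39 rank 9847, and in replicate 2 they had 5351 and 4373. The LIM gene ceh-14 and the TALE gene ceh-60 had none. Of the 20 members given no class 9 had a region, led by ceh-92, ceh-74 (9371, inside cest-2.3) and ceh-100 (9433, shared with lips-15). The windows of ceh-74 and ceh-100 held no replicate 1 region, and their replicate 2 ranks were 4435 and 3602.

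In all, 18 of 60 members (30%) had no promoter region in any of the 3 lists, against 39.6% of all genes. They were ceh-12, ceh-14, ceh-17, ceh-19, ceh-23, ceh-28, ceh-34, ceh-37, ceh-48, ceh-49, ceh-60, ceh-76, ceh-79, ceh-81, ceh-82, ceh-83, ceh-84 and ceh-89. A region in all 3 lists was present at 19 members (31.7%), against 27.3% of all genes.

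The 2 strongest pooled regions at the members lay inside genes and not at their starts. Outside the promoter windows 23 of 60 members (38.3%) had a pooled region elsewhere in the gene, against 31.3% of all genes, and 4 (6.67%) had one among the strongest 3000, against 3.48%. Members were longer than other genes, with a median gene length of 2846.5 bp against 2027 bp, and the part of length in this was not tested.

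The only optimal peak at a member was at ceh-14, a LIM homeobox gene of the thermosensory AFD neuron and other neurons. An optimal peak in the gene body occurred at 1 of 60 members (1.67%), against 0.781% of all genes. The peak covered positions 7527781 to 7528210 of chromosome X, in the 3′ UTR, with the summit 227 bp before the 3′ end of the gene and 4736 bp downstream of its start. Its signal was 104.0 and its pooled rank 693, close to the weakest optimal peak at 101.3. Replicate 2 had a signal of 75.8 and rank 528 there, and replicate 1 a signal of 31.9 and rank 2429. The peak was thus among the top 735 of replicate 2 and not of replicate 1. The nearest transcript start was that of F46C8.3, 2425 bp away. Within 5 kb of a start 3 of 60 members (5%) had an optimal peak, against 7.85% of all genes, and these were ceh-14, ceh-39 and ceh-5.

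The gene ceh-21, a One cut gene, had the internal region that was placed most evenly. It lies in an intron, from 1850532 to 1850961 on chromosome X, with the summit 1989 bp downstream of the start, and is the window with the TTAGGC copies shown above. It had a signal of 83.6 and pooled rank 1136. Replicate 1 had a signal of 36.7 and rank 1390, and replicate 2 a signal of 48.8 and rank 1566. Of the 4 strong internal regions it was the only one in the top 3000 of the pooled list and both replicates other than that of ceh-14. The promoter window of ceh-21 held a region at pooled rank 25390. A stronger one, at rank 5964, had its summit 1036 bp upstream of the start, just outside the window.

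The other strong internal regions were at ceh-8 and ceh-82. At ceh-8 the region had a signal of 65.3 and rank 2242, with rank 8546 in replicate 1 and 3894 in replicate 2. It lay in the 3′ UTR, 77 bp before the end of the gene, and also 619 bp upstream of the collagen gene col-63. At ceh-82 it had a signal of 61.3 and rank 2736, in a coding exon 157 bp before the end of the gene, with rank 2137 in replicate 2 and no region in replicate 1. Below these, the best internal regions were at the POU gene ceh-6 (rank 4307, in an intron) and at ceh-86 (6806).

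**Figure D4:**
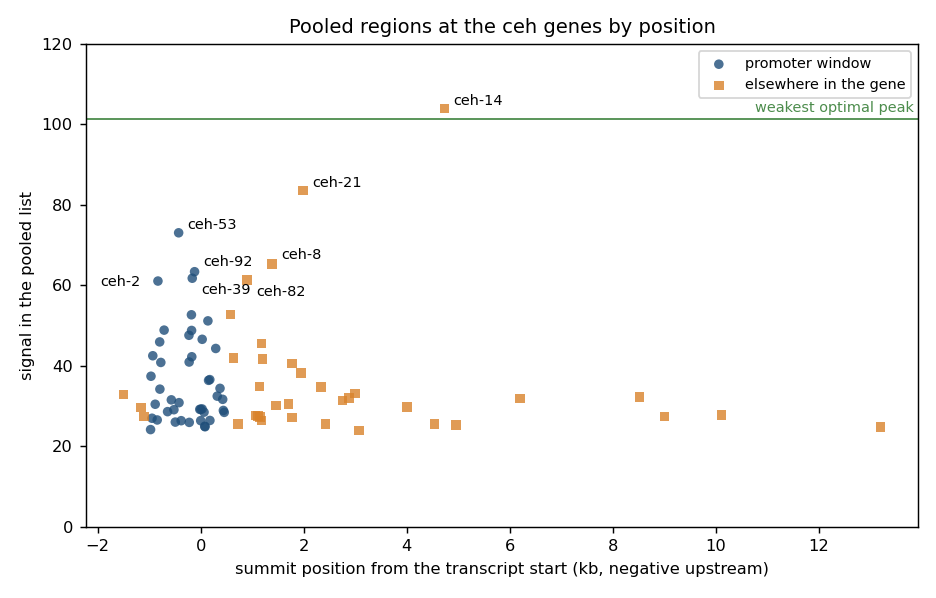
Signal in the pooled list (y axis) by position of the summit from the nearest transcript start in kb (x axis) for the 80 pooled regions at the ceh genes, 44 in promoter windows (circles) and 36 elsewhere in the gene (squares). Only the region of ceh-14, 4736 bp downstream of its start, lies above the line of the weakest optimal peak (101.3); the highest promoter region is that of ceh-53 at 73.1.

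Several members are neighbours, and their values differed. The CUT genes ceh-41, ceh-21 and ceh-39 lie in a row on chromosome X with gaps of 104 and 1138 bp, and their promoter ranks were 21417, 25390 and 2660. The region of rank 5964 just outside the window of ceh-21 is not counted there. The BarH-type genes ceh-30 and ceh-31 lie 3097 bp apart, with promoter ranks of 17750 and 4311. In the row ceh-81, ceh-82 and ceh-83 on chromosome II, with gaps of 268 and 425 bp, no promoter window held a region in any list. By chromosome, a pooled promoter region was present at 9 of 17 members on X (52.9%, against 41.6% of all genes there). On III it was 5 of 6 (83.3%, against 54.2%) and on V 6 of 12 (50%, against 32.6%). On I it was 5 of 8 (62.5%, against 54.4%), on II 6 of 13 (46.2%, against 44.9%) and on IV 2 of 4 (50%, against 41.6%).

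The summits of the 33 best promoter regions did not stand out in base composition. GC content in the same summit windows was 41.7 ± 8.81% (SD, n = 33 regions), against 41.8 ± 9.36% at the 7454 best promoter regions of all genes and 50.3 ± 7.16% at the 395 optimal peaks in promoter windows. Of 4 words of 6 bases searched on both strands, the GA repeat GAGAGA was present in 4 of 33 (12.1%, against 11.9% of all best promoter regions). GTTCGA, part of the B box of tRNA genes, was present in 0 of 33 (against 3.73%), ACGCGC in 2 (6.06%, against 5.33%) and TAATTA, a core site of many homeodomains, in 2 (6.06%, against 3.19%). At optimal promoter peaks GAGAGA was present in 20% and ACGCGC in 17%. None of the 4 words was in the windows printed above, and the ceh-14 window held GAGAGA.

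Homeobox genes with other names and the Hox and TALE genes were counted in the same way. Of 30 other homeobox genes 0 had an optimal promoter peak, and 2 (6.67%) had a promoter region among the strongest 3000, the Otx gene ttx-1 (rank 2096) and irx-1 (2390). In replicate 1 the top 3000 held promoter regions of 1 of 60 members (1.67%) and 3 of the 30 (10%), against 7.87% of all genes. In replicate 2 the order was reversed, with 3 of 60 members (5%) and 1 of the 30 (3.33%), against 8.59%. Inside genes 23 of 60 members (38.3%) and 19 of the 30 (63.3%) had a pooled region, against 31.3% of all genes. The median rank there was 16349 over the members, 7047 over the other homeobox genes and 12628.5 over all genes. In replicate 1 these medians were 9592, 11935 and 12275, and in replicate 2 they were 9673, 7945 and 12670. The order of the first 2 thus reversed in replicate 1. The median length of the other homeobox genes was 4680 bp. An internal region in the pooled top 3000 was present at 4 of 60 (6.67%) and 4 of 30 (13.3%), against 3.48% of all genes. After ttx-1 and irx-1 the best promoter ranks were those of dve-1 (6032), zfh-2 (6814), cog-1 (8167) and unc-42 (9479). Of 10 Hox and TALE genes 2 had an optimal promoter peak, unc-62 and ceh-20, and ceh-13 had rank 1001, with 3896 in replicate 1 and 945 in replicate 2. These lists were chosen with earlier results known, and the difference between them was not tested.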

How the data were processed

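The authors deposited narrowPeak lists on ce11. Descriptive text deposited with them states that each replicate and the pooled reads were set against a control alignment, and that IDR turned these 3 lists into the optimal one. Ranks within a list follow the signal that the authors deposited for each region; the −log10 q deposited beside it was only quoted. The peak-calling software is not given in the sources used here, nor is the IDR cut-off. Depth is unknown, and having 2 replicates limits precision. The control was not analysed here.

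Genes and transcript starts came from Ensembl release 115 (WBcel235, the assembly of ce11), and sequence from the matching RefSeq assembly. All pooled regions ended within their chromosomes. A region belonged to a gene by its summit, within 1000 bp before to 500 bp after any protein-coding transcript start, or elsewhere in the gene, and could belong to several genes. The rank threshold was 3000. Assignment was tested on 200 planted regions, all of which were assigned as planted. Members and lists were chosen with earlier results of these data known, so members are described by counts and medians beside those of all genes, and no test was run. One list symbol, ceh-44, had no gene of that name. Homeodomain classes were assigned by hand. Named were the 15 members with the best promoter rank, all with a strong or optimal region, the 6 best inside genes, up to 3 per class and all without a region, and further members where a class is listed. Alternatives were other windows, starts, assignments, thresholds, and leaving out replicates or regions near small RNA genes. Calculations ran in Python (3.11.15); tables were handled with pandas (2.3.3), NumPy (2.4.6) and SciPy (1.17.1), and plots were drawn in matplotlib (3.10.9).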

Additional observations from a re-analysis of the deposited data

How the results depend on the processing

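The count of 0 members with an optimal promoter peak was 0 under every alternative run, including the stronger 50% of the optimal list and the 735 strongest regions of either replicate. Members with any promoter region numbered 19 (31.7%) with a window of 500 bp upstream to 200 bp downstream, against 33, and 29.7% of all genes had one there. Without replicate 1 there were 32 (53.3%, against 44.2% of all genes), and without replicate 2 there were 28 (46.7%, against 43.9%). A promoter region in the top 3000 was then present at 3 (5%, against 8.59%) and 1 (1.67%, against 7.87%). An internal one was present at 3 in each case (5%, against 3.52% and 4.34%). The median rank was 9556 and 9652.5. The median was 11644.5 with 2000 bp upstream and 12754.5 with the nearest start only. With the top 2000, 1 member had a strong promoter region (1.67%, against 6.21% of all genes) and 2 a strong internal one (3.33%, against 2.12%). With the top 5000, 1 member had a promoter region in both replicates (1.67%, against 6.19%). Of the 15 members with the best promoter rank 11 had a rank in both replicates, and of these 6 moved by more than the replicate SD without replicate 1 and 8 without replicate 2. Of the 15, 4 lost their region without replicate 2. The narrower window removed 5, ceh-2 among them, and put ceh-5 at 26044 against 5485. The causes of these shifts were not tested. No paired analysis was possible because there is only 1 group. The number of replicates and the unknown depth limit the precision of single ranks.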

Other observations

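The −log10 q of the ceh-21 intron region was 2.66 in the pooled list, the same as that of the optimal peak at ceh-14 (2.66), although their signals were 83.6 and 104.0. The lowest −log10 q in the optimal list was 2.44. At ceh-53 it was 2.08, at ceh-92 1.56, at ceh-39 1.40 and at ceh-2 1.35. The optimal peak 4801 bp upstream of ceh-5 (signal 134.3) lay 348 bp upstream of eat-16. The median distance from a start to the nearest optimal peak was 29668.5 bp over the members and 54575 bp over all genes. Up to 500 bp beyond the upstream edge of the window 10 members had 11 pooled regions, and 0 of these were among the strongest 3000. Those at ranks 20327 (ceh-18) and 23683 (ceh-8) were also counted above as internal regions of these genes. The one at rank 26780, upstream of ceh-82, was counted as internal to ceh-81. The same count was not made over all genes.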
